A study of Homo sapiens with 9 samples.

Results

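A set of 10 genes of blood vessel signalling and vessel wall structure was read in Kasumi-1 cells by RNA sequencing: the VEGF receptors FLT1 and KDR, the co-receptor NRP1, the angiopoietin-receptor pair TIE1 and TEK, the ligands VEGFA and VEGFB, the junction protein JCAD, and the caveola proteins CAVIN1 and CAV1. These 10 symbols were looked up among the 59648 gene rows of each of 9 count files, and all 10 were found. They were chosen by vascular function with measured levels of the 3 groups known, and FLT1, JCAD and CAVIN1 were already known to be among the largest falls with AE knockdown. The recorded rule does not say which comparison, if any, led to each of the other genes, TIE1 included. The values of the 10 genes with AE knockdown are therefore given as a description, with no test. Kasumi-1 is a human acute myeloid leukaemia line with the t(8;21) translocation, whose fusion of RUNX1 and RUNX1T1 is called AML1-ETO or AE. Libraries fell into 3 groups of 3: cells infected with a lentivirus carrying a control shRNA (replicates 1 to 3), AE shRNAs (numbered 1 to 3) or LYL1 shRNAs (538, 540 and 542). LYL1 is a basic helix-loop-helix factor of blood cells that occurs in a complex with AE. All 9 libraries came from Kasumi-1 cells kept for 48 h after infection, then for 48 h with 1 µg/mL puromycin, with RNA taken on day 4. The control group thus carried a virus and a drug selection too, and all groups kept the fusion gene itself. One cell line was used, so no difference between lines can be read. It is not stated if the AE numbers stand for different shRNAs, nor if the control or AE libraries came from separate cultures. The LYL1 libraries each carried a different shRNA, so their spread also holds differences between shRNAs. The p-values below therefore measure only the spread between these libraries, which may be technical in the control and AE groups.

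VEGF ligands bind the tyrosine kinase receptors FLT1 (VEGFR1) and KDR (VEGFR2) on endothelial cells. KDR carries most of the growth signal, FLT1 binds VEGFA and VEGFB tightly with weaker kinase activity, and NRP1 holds VEGFA at the surface and is also a receptor for class 3 semaphorins. TEK (TIE2) is the receptor of the angiopoietins, and TIE1 is its relative with no well-established ligand of its own, which modulates TEK. Caveolae are small pits of the plasma membrane that are abundant in endothelium and are built by caveolins such as CAV1 and coated by cavins such as CAVIN1. FLT1 is known outside vessels too, on monocytes and on some leukaemic blasts.

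The promoter sequences of FLT1, TIE1 and JCAD are shown because these genes lay below the controls in all 3 AE knockdown libraries and the reference table holds their start sites. The windows run from 250 bases before to 50 bases after each RefSeq start on GRCh38.p14, are written 5′ to 3′ on the strand of the gene, and JCAD has 2 starts. Capitals mark short matches, on either strand, to letters used here for 4 families of blood and endothelial factors.
FLT1, chr13:28495079-28495378, minus strand: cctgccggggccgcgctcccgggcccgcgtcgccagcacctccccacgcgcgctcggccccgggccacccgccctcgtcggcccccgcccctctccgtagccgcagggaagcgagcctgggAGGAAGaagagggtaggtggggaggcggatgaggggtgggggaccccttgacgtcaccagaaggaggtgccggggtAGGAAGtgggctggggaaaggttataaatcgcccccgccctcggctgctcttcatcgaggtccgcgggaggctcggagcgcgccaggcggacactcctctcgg
TIE1, chr1:43300732-43301031, plus strand: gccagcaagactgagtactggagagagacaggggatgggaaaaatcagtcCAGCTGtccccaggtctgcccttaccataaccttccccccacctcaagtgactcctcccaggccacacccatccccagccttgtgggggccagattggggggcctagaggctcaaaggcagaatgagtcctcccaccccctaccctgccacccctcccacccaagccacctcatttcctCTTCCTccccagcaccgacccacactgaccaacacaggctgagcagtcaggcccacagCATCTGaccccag
JCAD first start, chr10:30115445-30115744, minus strand: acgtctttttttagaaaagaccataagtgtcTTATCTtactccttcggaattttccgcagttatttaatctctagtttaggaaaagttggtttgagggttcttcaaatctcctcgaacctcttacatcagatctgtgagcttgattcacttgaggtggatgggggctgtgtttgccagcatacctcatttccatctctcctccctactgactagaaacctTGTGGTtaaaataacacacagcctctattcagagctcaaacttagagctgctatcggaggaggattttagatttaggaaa
JCAD second start, chr10:30059537-30059836, minus strand: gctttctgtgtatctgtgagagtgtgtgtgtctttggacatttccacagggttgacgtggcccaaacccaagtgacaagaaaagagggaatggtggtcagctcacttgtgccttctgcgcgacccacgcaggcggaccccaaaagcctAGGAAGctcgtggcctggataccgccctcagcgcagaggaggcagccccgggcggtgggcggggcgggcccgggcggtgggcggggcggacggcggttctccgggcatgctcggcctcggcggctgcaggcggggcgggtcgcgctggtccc
The letters searched were TGTGGT or TGCGGT for RUNX factors, CCGGAA or AGGAAG for ETS factors, and AGATAA or TGATAA for GATA factors. For E-boxes, which basic helix-loop-helix factors such as TAL1 and LYL1 bind with their partners, they were CAGCTG or CAGGTG or CATCTG. None of the matches in these 4 windows overlapped another. The first JCAD window held 1 RUNX match, TGTGGT, and 1 GATA match on the minus strand, and its second window held 1 ETS match. The FLT1 window held 2 ETS matches, AGGAAG, and no RUNX match. The TIE1 window held 1 ETS match on the minus strand and 2 E-box matches. Of all 35116 windows in the table, 19.6% held a RUNX, 45.4% an ETS, 43.7% an E-box and 16.3% a GATA match, so each of these matches is common in promoters. Of the 10 genes, 7 were matched in the table by symbol, with 11 windows. A match is a description of letters and not a measured binding site.

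Library totals ranged from 20103275 to 28039518 counts, and values are given as CPM, a count scaled to the TMM-normalised library size (factors from 0.914 to 1.04). AE knockdown replicate 3 had the factor of 0.914 and lay apart from the other libraries, so values with and without it are given below for some of the results it moves. RUNX1T1, read to check the AE knockdown, lay at 52.6%, 63.0% and 40.5% of the control mean in AE knockdown replicates 1, 2 and 3. In the same libraries RUNX1 lay at 63.5%, 61.0% and 52.3% of its control mean and LYL1 at 161%, 123% and 106%. With LYL1 shRNAs 538, 540 and 542, LYL1 lay at 49.5%, 60.5% and 27.0% of its control mean. A count of 0 in a library allows a level of up to 0.106 to 0.150 CPM (3 counts), which covers counting error only. Of 10 markers of myeloid blasts all 10 passed the low-count filter, with summed levels of 23400 to 27300 CPM in controls, 21000 to 43200 with AE knockdown and 15400 to 25300 with LYL1 knockdown. The sum was mostly MPO, with a mean of 19500 CPM in controls. Single markers moved both ways with AE knockdown, such as ANPEP from 276 to 776 CPM and KIT from 1140 to 946 CPM. Of 7 endothelial markers read, 1 (ESAM) passed it, and the summed level was 1.64 to 1.90 CPM in controls, 0.289 to 0.846 with AE knockdown and 1.42 to 3.19 with LYL1 knockdown. VWF and CLEC14A were at 0 in all 9 libraries, and ROBO4 and EMCN had at most 1 and 3 counts in any library. CDH5, VE-cadherin, had 0 to 23 counts a library, with means of 0.108 CPM in controls, 0 with AE knockdown and 0.588 with LYL1 knockdown. CLDN5 had 2 to 9 counts in every library, and ESAM had means of 1.39, 0.323 and 1.45 CPM in the control, AE and LYL1 groups. The cells thus had the markers of the labelled blast, with the 7 endothelial markers read at 0 or at low levels. Some genes of the endothelial lists below lay higher in controls, such as EGFL7 at 334, CD93 at 131 and ENG at 72 CPM.

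**Figure D1:**
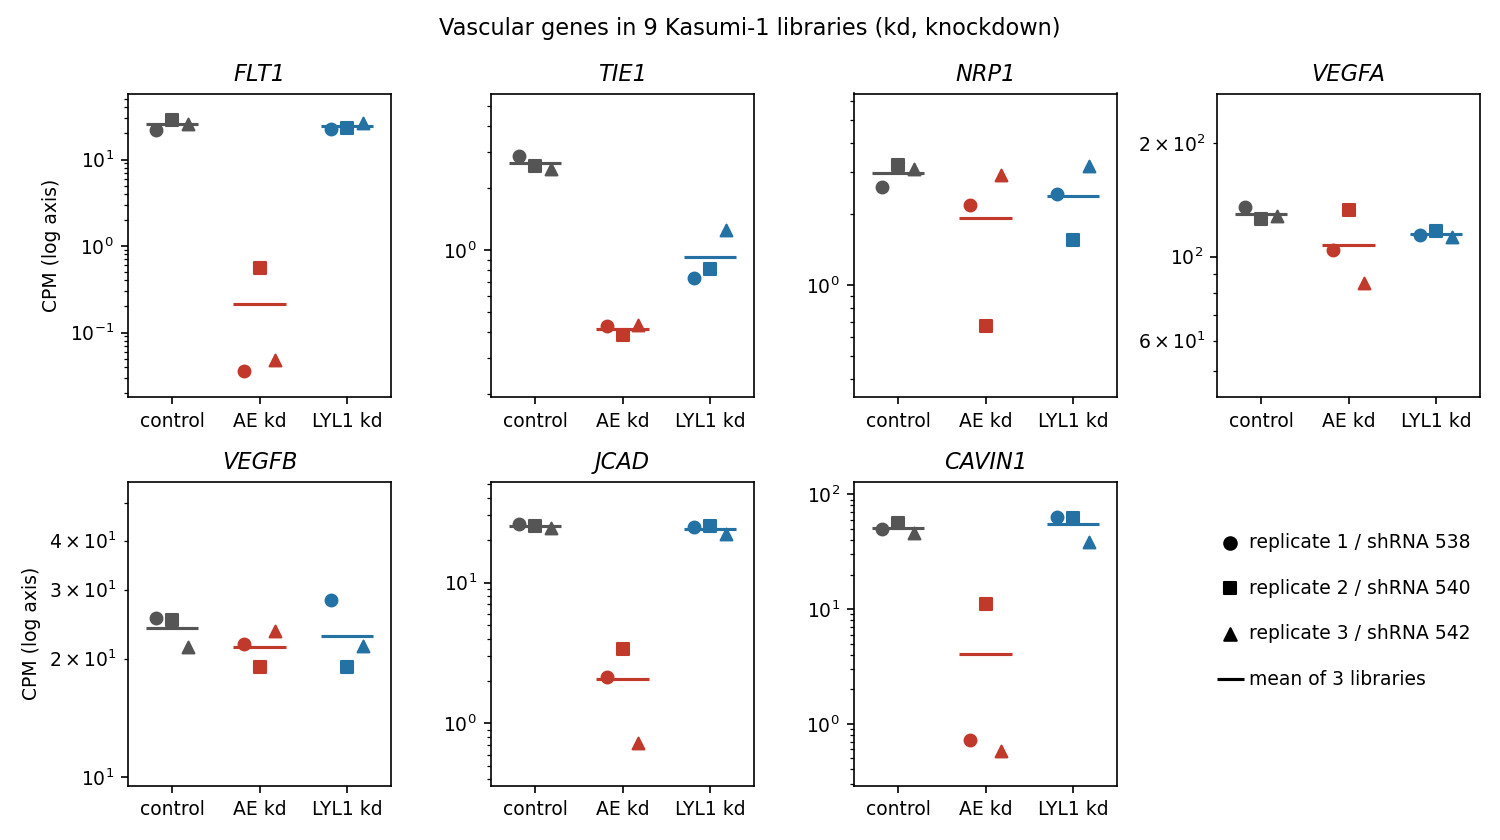
CPM on a log axis in each of the 9 libraries for the 7 vascular genes with counts above the low-count filter, by group; points are libraries and horizontal lines are means of 3. FLT1, JCAD, CAVIN1 and TIE1 lie below both other groups with AE knockdown, and TIE1 also lies below the controls with LYL1 knockdown.

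FLT1 was nearly absent with AE knockdown and near the control level with LYL1 knockdown. Controls held 545, 769 and 620 counts, or 22.1, 29 and 26 CPM. With AE knockdown replicates 1, 2 and 3 held 1, 16 and 1 counts, or 0.0358, 0.564 and 0.0481 CPM. All 3 AE libraries lay below every other library, and replicate 2 stood above the other two. As shares of the control mean these are 0.139% (exact Poisson 95% interval 0.00352% to 0.776%), 2.19% (1.25% to 3.56%) and 0.187% (0.00474% to 1.04%), intervals that cover counting error only. The log2 fold change was -6.76, and -9.12 without replicate 2 or -6.40 without replicate 3, so the size rests on replicate 2. In bulk RNA, fewer cells with FLT1 and less FLT1 per cell cannot be told apart, and counts per gene do not separate the receptor from its soluble form. With LYL1 knockdown the levels were 22.8, 23.3 and 26.8 CPM for shRNAs 538, 540 and 542, within the range of the controls.

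KDR, the main signalling receptor of VEGFA in endothelium, was practically not detected. It had 0 counts in 8 libraries and 1 count with LYL1 shRNA 538. FLT4, the VEGF receptor of lymphatic vessels, did not pass the filter either, which left FLT1 as the VEGF receptor kinase that did.

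NRP1, the co-receptor, was low and varied. Controls held 2.59, 3.24 and 3.11 CPM. AE knockdown replicates 1, 2 and 3 held 2.18, 0.669 and 2.93 CPM, and LYL1 shRNAs 538, 540 and 542 gave 2.42, 1.55 and 3.19 CPM. The groups overlapped in both comparisons. AE knockdown replicate 2 was the low library, at 22.5% of the control mean against 73.2% and 98.5% in the other two. Without it the log2 fold change was -0.24, against -0.66 with all libraries and -1.08 without replicate 3.

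TIE1 lay below the controls in both knockdown groups, and lowest with AE knockdown. Controls held 71, 68 and 59 counts, or 2.87, 2.56 and 2.48 CPM. LYL1 shRNAs 538, 540 and 542 left 19, 21 and 25 counts, or 0.729, 0.813 and 1.25 CPM. AE knockdown left 12, 11 and 9 counts, or 0.429, 0.388 and 0.433 CPM in replicates 1, 2 and 3. No library of a group overlapped another group, in the order control, LYL1 knockdown, AE knockdown. The 3 AE libraries gave close values for TIE1 (coefficient of variation 6.04%), where those for FLT1 varied by 140%, for CAVIN1 by 146% and for JCAD by 63.4%. With 12, 11 and 9 counts the counting error of TIE1 is wider than that. The exact Poisson 95% intervals were 8.41% to 28.4%, 7.33% to 26.3% and 7.5% to 31.2% of the control mean in AE replicates 1, 2 and 3. The close values thus do not show that TIE1 fell evenly. The log2 fold change with AE knockdown was -2.65, and from -2.70 to -2.59 in the 9 fits that each left out 1 library. TEK, the angiopoietin receptor that TIE1 acts with, had 0 counts in all 9 libraries.

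For both ligands the AE libraries overlapped the controls. VEGFA, the main angiogenic ligand, lay at 135, 126 and 128 CPM in controls. AE knockdown replicates 1, 2 and 3 held 104, 133 and 85.1 CPM, and LYL1 shRNAs 538, 540 and 542 gave 114, 117 and 113 CPM. For VEGFA this overlap came from AE replicate 2, and the LYL1 libraries all lay below the controls, at 87.1% to 90.2% of their mean. VEGFB, a ligand of FLT1 and not of KDR, had control levels of 25.4, 25.1 and 21.4 CPM. Its levels were 21.8, 19.0 and 23.6 CPM with AE knockdown, against 28.2, 19.0 and 21.5 CPM in the LYL1 libraries. Its 3 groups overlapped. The log2 fold changes with AE knockdown were -0.27 for VEGFA (from -0.45 to -0.14 on leaving out 1 library) and -0.16 for VEGFB.

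JCAD, a protein of endothelial cell junctions that also binds the Hippo kinase LATS2, followed FLT1 in direction. Controls held 25.9, 25.4 and 24.4 CPM, a coefficient of variation of 3.14%, the smallest of the 7 genes with counts above the filter. AE knockdown replicates 1, 2 and 3 held 2.15, 3.35 and 0.722 CPM, which is 8.51%, 13.3% and 2.86% of the control mean. Replicate 3 was the lowest here, and no AE library came near the controls. With LYL1 knockdown the levels were 24.7, 25.4 and 22.0 CPM, overlapping the controls. The log2 fold change with AE knockdown was -3.56, and -3.21 without replicate 3.

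CAVIN1, the cavin that coats caveolae, split the AE libraries. Controls held 49.6, 56.5 and 45.9 CPM. AE knockdown replicates 1 and 3 held 0.715 and 0.577 CPM, and replicate 2 held 11 CPM, which is 21.8% of the control mean against 1.41% and 1.14%. The log2 fold change of -3.59 became -6.27 without replicate 2. LYL1 knockdown gave 64.1, 62.5 and 38.7 CPM, on both sides of the controls. CAV1, the caveolin that builds the coat with it, had 0 counts in all 9 libraries.

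**Figure D2:**
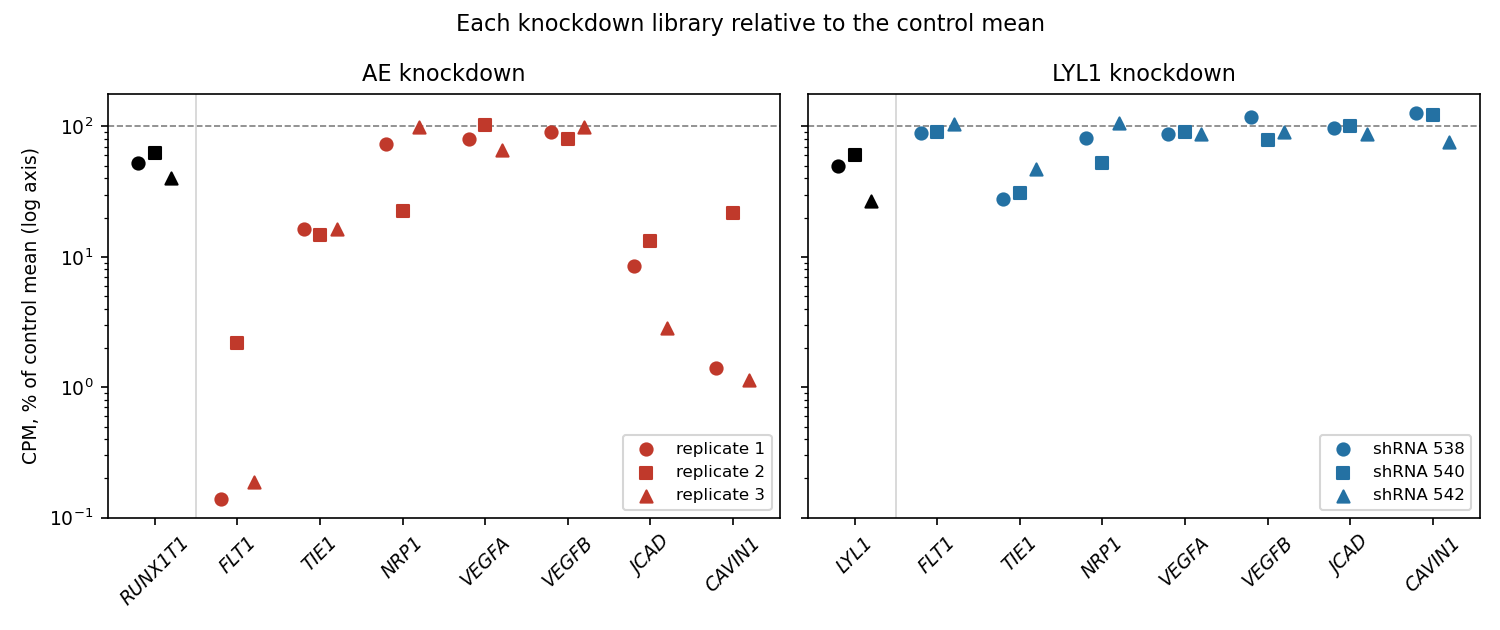
CPM of each knockdown library as a percentage of the mean of the 3 control libraries, on a log axis, for the knockdown target (black) and the 7 vascular genes. AE knockdown replicate 2, with RUNX1T1 at 63.0%, has the highest FLT1, JCAD and CAVIN1 of the AE libraries, and TIE1 lies at 27.6% to 47.3% with LYL1 knockdown while FLT1 lies at 88.9% to 104%.

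Side by side, the AE libraries differed in how far these genes went down. RUNX1T1 was highest in replicate 2 (63.0% of control), where FLT1, JCAD and CAVIN1 were also highest and NRP1 was lowest. Replicate 3 had the least RUNX1T1 (40.5%) and the lowest JCAD, CAVIN1 and VEGFA. TIE1 lay at 16.3%, 14.7% and 16.4% of the control mean in replicates 1, 2 and 3, with counting error too wide for a small spread to be seen. With LYL1 knockdown, TIE1 was highest (47.3%) with shRNA 542, which left the least LYL1 (27.0%). Whether the remaining target level bears on any of these values was not tested.

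Of the 10 genes 7 passed the low-count filter, and KDR, TEK and CAV1 did not. With AE knockdown 4 of these 7 (FLT1, TIE1, JCAD and CAVIN1) lay below the controls without overlap, which held for 22.2% of the 14741 genes tested. Because the choice of genes used that comparison, nothing is read from this count. Against the LYL1 knockdown libraries the same 4 lay lower with AE knockdown without overlap, which held for 17.2% of all genes. The log2 differences were -6.68 for FLT1, -1.13 for TIE1, -3.49 for JCAD and -3.71 for CAVIN1, and -9.04 for FLT1 and -6.39 for CAVIN1 without AE knockdown replicate 2. The AE libraries are shared with the comparison above, so this too is a description. NRP1, VEGFA and VEGFB overlapped between the knockdowns.

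LYL1 knockdown against control asks whether these vascular genes respond to a partial lowering of LYL1, whose RNA was left at 27.0% to 60.5% of control. The test was run on the assumption that this comparison did not choose the genes, which the recorded rule does not settle. If TIE1 was picked for its level with LYL1 knockdown, its p-values and its place in the counts below are a description and no independent evidence. None of the 7 genes was called (edgeR quasi-likelihood test, Benjamini-Hochberg adjusted p below 0.05 over 14741 genes), in a comparison that called 0.0136% of all genes. Of the 7, 1 (TIE1) had an unadjusted p below 0.05, against 4.82% of all genes, and DESeq2 called 1, also TIE1. For TIE1 the level was 2.88-fold lower (log2 -1.53, SE 0.27) and below the controls in 3 of 3 libraries. This gave an edgeR adjusted p of 0.183 and a DESeq2 adjusted p of 0.0113. The edgeR value ranged from 0.0752, in a fit of only the 6 libraries compared, to 1 without control replicate 1. The difference was larger than the spread between these libraries and did not pass correction over all genes in edgeR. TIE1 and VEGFA were the 2 of 7 genes below the controls without overlap, against 8.17% of all genes. VEGFA had a log2 fold change of -0.18 (SE 0.16, edgeR adjusted p = 1). FLT1 had one of -0.08 (SE 0.28), JCAD -0.07 (SE 0.29), CAVIN1 0.12 (SE 0.70), NRP1 -0.34 (SE 0.42) and VEGFB -0.07 (SE 0.17). These errors leave room for changes of some size, so the values do not show that LYL1 knockdown left the genes as they were. Each error uses the spread over all 9 libraries, AE included. That of CAVIN1 thus takes in its split AE libraries (coefficient of variation 146%, against 10.7% in controls and 25.8% with LYL1 knockdown).

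Per length of annotated exon, the control levels of these genes fell in an order that raw CPM does not give. VEGFB lay at 15.5 CPM per kilobase, CAVIN1 at 13.2 and VEGFA at 8.94. JCAD at 2.65 and FLT1 at 2.05 came next, and TIE1 at 0.394 and NRP1 at 0.259 were lowest. These lengths join all exons of GENCODE release 29 (GRCh38), which is not the annotation of the counts, and they overstate the length of genes with many isoforms such as VEGFA. By the same annotation only NRP1 and VEGFA share exon bases with another gene, in both cases an antisense transcript; the one at VEGFA had 0 counts in every library, and the one at NRP1 was not analysed here.

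The wider vascular programme was read in 11 lists of related genes, which held 227 genes with none in 2 lists, 226 of them in the files and 138 of them tested. With AE knockdown 41 of the 138 fell (29.7%) and 8 rose (5.8%), where 10.4% of all genes tested fell and 11.4% rose. The median log2 fold change was -0.36 over the list genes and 0.05 over all genes. Without control replicate 1, 2 or 3 the falls were 19, 19 and 23 and the rises 3, 1 and 1, of 145, 143 and 145 list genes tested, while 3.95%, 3.53% and 3.97% of all genes fell. Calls were thus fewer over all genes too. A call lost without a control, here or below, therefore does not single out that library. With LYL1 knockdown edgeR called none of the 138, in a comparison that called 0.0136% of all genes. Of the 138, 11 had an unadjusted edgeR p below 0.05, as did 4.82% of all genes. DESeq2 called 1 of the 138, the chemokine CXCL8. Some of these genes, such as ERG, TAL1, GATA2, ETV6 and JUP, were known from earlier results of these data to be lower with AE knockdown. Their part in the 41 falls is therefore a description and no independent evidence.

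**Figure D3:**
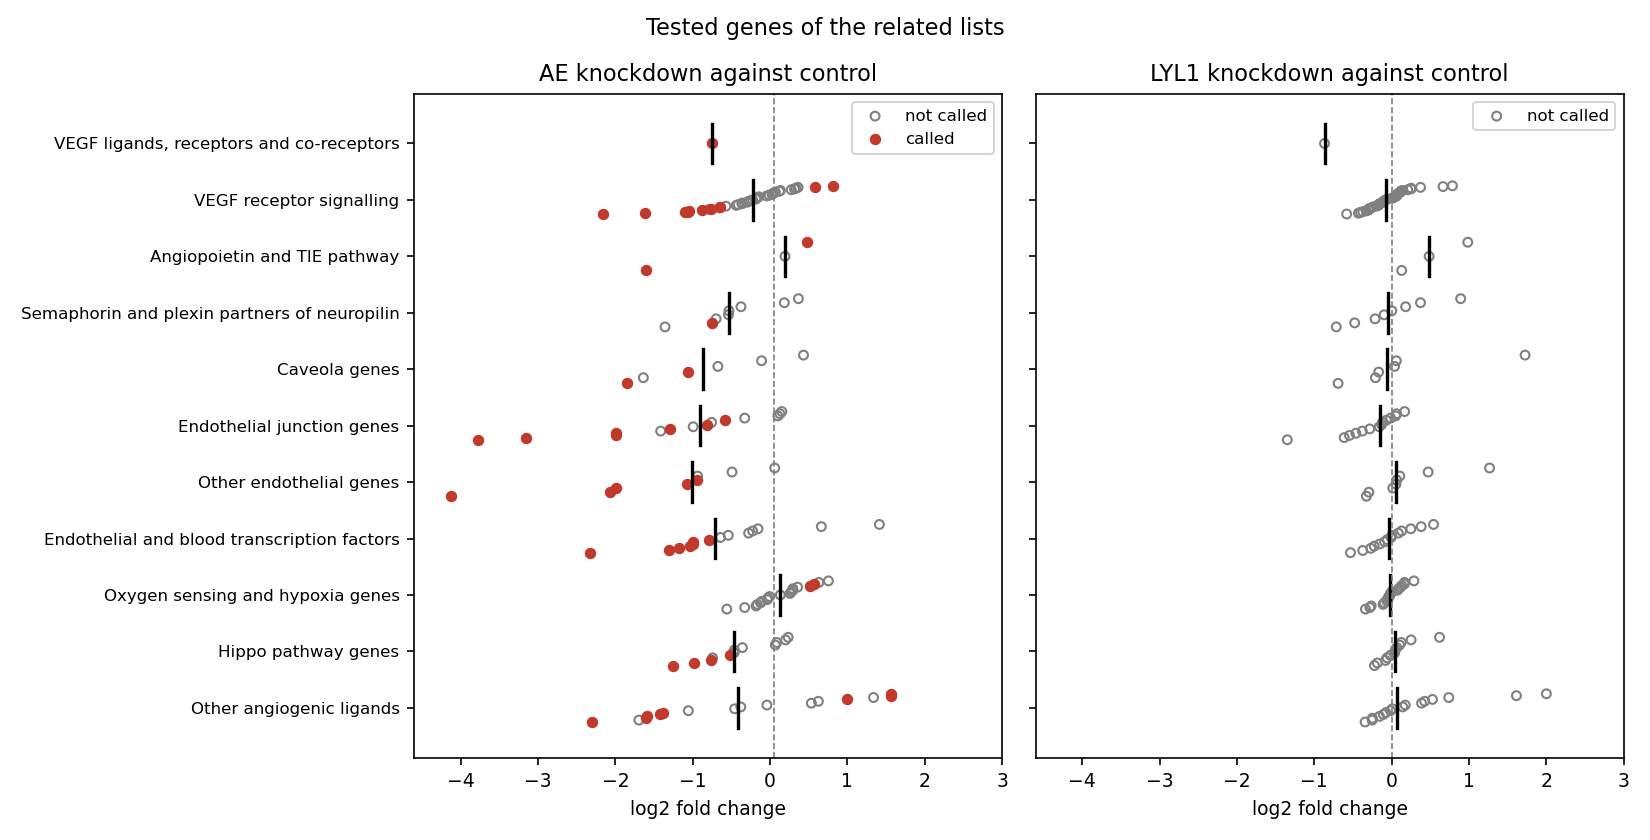
Log2 fold change against control of each tested gene of the 11 lists, for AE knockdown (left) and LYL1 knockdown (right); filled points are called by edgeR, open points are not, short black lines are list medians and the dashed line is the median of all genes. Called genes are mostly to the left of 0 with AE knockdown, in the junction list 7 of 14, and no gene is called with LYL1 knockdown.

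Among the other VEGF family genes, only placental growth factor, PGF, a ligand of FLT1, was tested. Its control levels were 9.59, 9.04 and 8.78 CPM. The AE libraries held 4.01, 6.55 and 5.72 CPM and the LYL1 libraries 5.41, 5.46 and 4.09 CPM, below every control in both knockdowns. Its fall with AE knockdown had a log2 fold change of -0.75 (edgeR adjusted p = 0.0321), and the call was lost without any 1 control or AE knockdown replicate 1 (adjusted p up to 0.107). Its log2 change with LYL1 knockdown, -0.87 (SE 0.22), was not called (edgeR adjusted p = 0.596).

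Of 37 tested genes of VEGF receptor signalling 8 fell and 2 rose with AE knockdown (median -0.23), and 3 fell in each fit that left out 1 control. The rises were 2, 0 and 0 without control replicate 1, 2 or 3 and 4 without AE knockdown replicate 3. PTK2, the focal adhesion kinase, went from 175, 176 and 172 CPM to 83.5, 86.9 and 73.9 CPM (log2 fold change -1.10, edgeR adjusted p = 0.00103). With LYL1 knockdown PTK2 lay at 206, 210 and 207 CPM, above all controls, and was not called (edgeR adjusted p = 1). SHB, an adaptor that binds phosphorylated KDR, fell from 9.86 ± 1.09 to 4.68 ± 0.968 CPM (SD, n = 3) and SH2D2A, the adaptor TSAd, from 3.76 ± 0.234 to 0.803 ± 0.543 CPM. PLCG1, the phospholipase downstream of KDR, fell 1.56-fold, and the haematopoietic genes RAC2 and PIK3CD rose 1.77-fold and 1.49-fold. NOS3, the endothelial nitric oxide synthase, had a mean of 2.2 CPM (SD 0.0224) in controls, 1.51 (SD 0.584) in AE libraries and 3.79 (SD 0.89) in LYL1 libraries, with no call against control.

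Of 9 angiopoietin pathway genes 3 were tested. ANGPT1, the activating ligand of TEK, fell from 7.84 ± 2.55 to 2.51 ± 1.30 CPM with AE knockdown (edgeR adjusted p = 0.0458). This call was lost without any 1 of the controls, AE knockdown replicate 1 or 3, or LYL1 shRNA 538, at an adjusted p of up to 0.15. With LYL1 knockdown ANGPT1 lay at 17.1, 22.9 and 6.24 CPM for shRNAs 538, 540 and 542, which overlapped the controls. TNIP2, an inhibitor of NF-kB that binds TEK, rose 1.39-fold with AE knockdown (edgeR adjusted p = 0.0442), and this call was lost without any 1 of the controls, AE knockdown replicate 1 or 2, or LYL1 shRNA 538, at an adjusted p of up to 0.164. Of 8 tested semaphorin and plexin partners of NRP1, PLXND1, the plexin of vessel patterning, was the one that fell (1.69-fold, edgeR adjusted p = 0.043), and 7 were not called. This fall was 12.5% of the list, near the 10.4% of all genes that fell. The PLXND1 call was lost without any 1 of the 9 libraries except AE knockdown replicate 1, with an adjusted p of up to 0.133.

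Of 6 tested caveola genes beside CAVIN1, 2 fell with AE knockdown and none rose. The falls were 0, 1 and 1 without control replicate 1, 2 or 3, 1 without LYL1 shRNA 538 or 540, and 3 with 1 rise without AE knockdown replicate 2. CAVIN4, the muscle cavin, lay at 3.52, 1.92 and 2.06 CPM in controls and 0.644, 1.06 and 0.289 CPM with AE knockdown (edgeR adjusted p = 0.0131, and 0.0615 without control replicate 1). PACSIN3, a membrane-bending protein of caveolae, fell 2.08-fold (edgeR adjusted p = 0.0349), a call that was lost without any 1 control (adjusted p up to 0.103) or without LYL1 shRNA 538 or 540 (0.0501 and 0.0515). Its AE knockdown replicates 1, 2 and 3 lay at 62.6%, 60.4% and 20.6% of the control mean, so the size rests in part on replicate 3. EHD2, the ATPase at the caveolar neck, was at 0.371 ± 0.104 CPM (SD, n = 3) in controls, 0.111 ± 0.0655 in AE libraries and 1.23 ± 0.535 in LYL1 libraries, with no call against control.

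Of 14 tested endothelial junction genes 7 fell with AE knockdown and none rose (median -0.90), and in each fit that left out 1 control 5 fell. JUP, among the 7, was known beforehand to be lower in these data, so its fall is a description. CGN, the tight junction protein cingulin, went from 7.21, 9.57 and 8.10 CPM to 0.250, 1.27 and 0.192 CPM (log2 fold change -3.78, edgeR adjusted p = 0.00175). MCAM, the adhesion molecule CD146, went from 4.86, 5.31 and 5.12 CPM to 0.572, 0.564 and 0.577 CPM (-3.15, edgeR adjusted p = 0.00134). AFDN, the junction scaffold afadin, fell 1.76-fold, and JAM3 and ESAM, adhesion molecules of the junction, fell 3.99-fold and 3.97-fold. CTNNB1, beta-catenin, lay at 289 ± 9.80 CPM in controls and 310 ± 85.1 CPM with AE knockdown (edgeR adjusted p = 0.754). MCAM was also lower with LYL1 knockdown, at 1.54, 1.28 and 3.34 CPM, without a call (edgeR adjusted p = 0.527).

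Of 8 tested genes among 32 other endothelial genes 5 fell with AE knockdown and none rose (median -1.01), and 10 of the 32 had no count in any library. CD93, a C-type lectin receptor of endothelium and myeloid cells, went from 130, 140 and 124 CPM to 35.3, 28.2 and 35.6 CPM (edgeR adjusted p = 0.00728). RAMP2, the co-receptor of adrenomedullin signalling, fell from 7.33, 7.05 and 5.84 CPM to 1.25, 1.62 and 1.97 CPM (edgeR adjusted p = 0.00507). MMRN1, the clotting-factor carrier multimerin, fell from 0.765 ± 0.161 CPM to 0.0354 ± 0.0352 CPM, or from 19, 16 and 22 counts to 1, 2 and 0. Without control replicate 1 or 2 the falls in this list were 3 and 3. For PROCR, the protein C receptor, the call held only without AE knockdown replicate 2 among the 9 fits that left out a library (adjusted p up to 0.145 in the others). CD34, a marker of blood stem cells and endothelium, ranged from 1.14 to 19.7 CPM with AE knockdown and from 9.98 to 53.2 CPM with LYL1 knockdown, on both sides of the controls at 10.5 to 12.5 CPM.

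Of 14 tested transcription factors shared by endothelial and blood-forming cells 7 fell with AE knockdown and none rose (median -0.72), with 5, 4 and 6 falls without control replicate 1, 2 or 3. DESeq2 called 2 rises. In edgeR 1 rise was called with only the 6 libraries compared, without AE knockdown replicate 1 or without LYL1 shRNA 538. LMO2 lay above all controls (1.58-fold, edgeR adjusted p = 0.0656), and KLF2 was 2.66-fold higher but overlapped them (edgeR adjusted p = 0.093). ELK3, an ETS factor of vessels, went from 84.3, 85.3 and 82.5 CPM to 38.6, 35.1 and 27.9 CPM (edgeR adjusted p = 0.00308). FOXO1 fell from 13.3 ± 0.454 to 6.65 ± 0.488 CPM (edgeR adjusted p = 0.00507). FLI1, the ETS factor of both lineages, lay at 209 ± 3.15 CPM in controls and 188 ± 40.6 CPM with AE knockdown and was not called (edgeR adjusted p = 0.532). ERG, MEF2C, GATA2, TAL1 and ETV6 were the others that fell. ERG, GATA2, TAL1 and ETV6 were known beforehand to be lower in these data, so their part in the 7 falls is a description.

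Among oxygen-sensing and hypoxia genes, a pathway that controls VEGFA in many cells, 2 of 19 tested rose with AE knockdown and none fell (median 0.13). The rises were 10.5% of the list, near the 11.4% of all genes that rose. P4HA1, a collagen prolyl hydroxylase induced by hypoxia, rose 1.48-fold and RBX1, a subunit of the VHL ubiquitin ligase, 1.42-fold, and both calls depended on every control: with 1 left out, the largest adjusted p was 0.0807 for P4HA1 and 0.17 for RBX1, and neither was called. The RBX1 call was also lost without AE knockdown replicate 2 or 3 or any 1 LYL1 library. HIF1A, the hypoxia-inducible factor subunit, lay at 119 ± 5.83 CPM in controls and 80.5 ± 16.1 CPM with AE knockdown (edgeR adjusted p = 0.134). Of 12 tested Hippo pathway genes 4 fell and none rose (median -0.46), and in each fit that left out 1 control 1 fell. LATS2, the kinase that JCAD binds, lay at 7.57 ± 0.447 CPM in controls and 7.97 ± 2.92 CPM with AE knockdown (edgeR adjusted p = 0.874). AJUBA, a LIM protein that holds LATS kinases, fell 1.98-fold, with the call lost without control replicate 1 or 2 (adjusted p of 0.0716 and 0.0653).

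Of 16 tested angiogenic ligands outside the VEGF family 5 fell and 3 rose with AE knockdown. MDK, the heparin-binding growth factor midkine, went from 72.0, 75.2 and 63.3 CPM to 38.3, 20 and 21.9 CPM (edgeR adjusted p = 0.00422). CXCL3, a neutrophil chemokine, fell from 1.22 ± 0.370 to 0.233 ± 0.170 CPM. CXCL8, interleukin 8, moved the other way, from 1.30, 1.81 and 1.76 CPM to 4.90, 3.73 and 5.82 CPM (log2 fold change 1.56, edgeR adjusted p = 0.006). With LYL1 knockdown CXCL8 lay at 5.80, 5.42 and 8.43 CPM, above all controls, with an edgeR adjusted p of 0.0587. It was called without AE knockdown replicate 2 (0.0435) or 3 (0.0174), and its adjusted p ranged from 5.04e-08 in DESeq2 to 0.531 without control replicate 1. The list's falls were 2, 2 and 3 without control replicate 1, 2 or 3 and 3 without AE knockdown replicate 1. Its rises were 1 in each fit that left out a control. Its median of -0.42 over 16 genes turned to 0.06 over 19 genes without AE knockdown replicate 1 and to 0.50 over 25 genes with no low-count filter. Over 19 genes it was -0.05, -0.01 and -0.07 without control replicate 1, 2 or 3 and -0.05 without LYL1 shRNA 542. These fits also changed which genes were tested, so the medians are not of 1 fixed set.

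**Figure D4:**
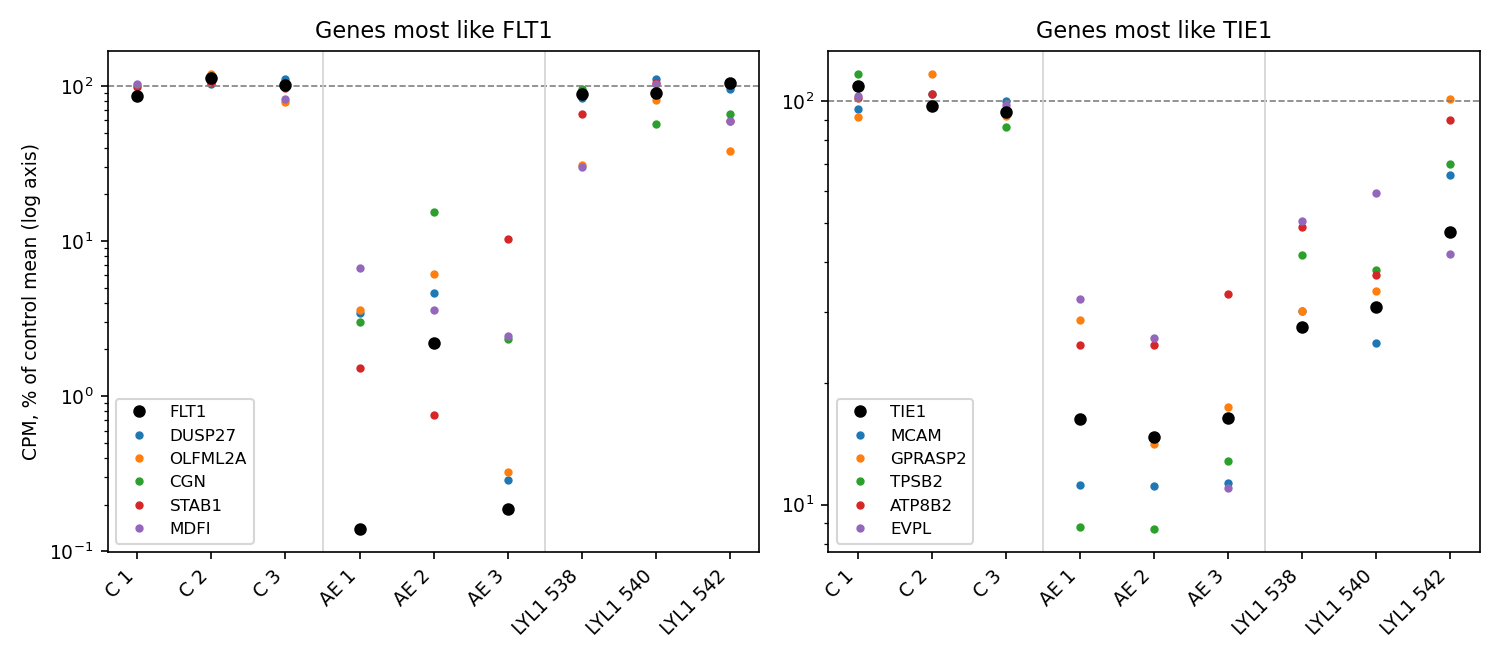
CPM in each of the 9 libraries (C, control shRNA) as a percentage of the control mean, on a log axis, for FLT1 (left) and TIE1 (right, both black) and the 5 genes with the most similar pattern. The genes nearest FLT1 are low in the AE libraries, and those nearest TIE1 are low in the AE libraries and, less so, in most LYL1 libraries.

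Other genes with like patterns were found by the root mean square difference of log2 CPM, less the control mean, over the 9 libraries, among the 12301 tested genes whose mean log2 CPM was 0 or more. The gene nearest to FLT1 was DUSP27, an atypical phosphatase-family gene, at a distance of 1.12, with 14.5, 17.2 and 18.4 CPM in controls and 0.572, 0.775 and 0.0481 CPM with AE knockdown. OLFML2A (1.39), CGN (1.68), STAB1 (1.81) and MDFI (1.82) followed. CGN belongs to the junction list, and STAB1 is a scavenger receptor of sinusoidal endothelium and macrophages. OLFML2A, a secreted olfactomedin-family protein, held 4.57, 12 and 5.69 CPM with LYL1 knockdown and 15, 17.8 and 11.8 CPM in controls, so shRNAs 538 and 542 lay below the controls where FLT1 lay among them. The gene nearest to TIE1 was MCAM, at a distance of 0.371, followed by GPRASP2 (0.438), TPSB2 (0.491), ATP8B2 (0.524) and EVPL (0.569). TPSB2 is a tryptase gene with close copies, so its counts are uncertain. EVPL, a plakin of the cell envelope, lay at 201, 192 and 191 CPM in controls, with 62.9, 50.5 and 21.5 CPM in the AE libraries and 98.3, 115 and 81.3 CPM in the LYL1 libraries. The distances of TIE1's neighbours were smaller than those of FLT1's, whose values with AE knockdown lie at single counts in 2 of 3 libraries.

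Markers of other cell types were read beside these genes. Of 6 megakaryocyte markers 2 passed the filter and PF4 was at 0, with summed levels of 2.27 to 3.28 CPM in controls, 2.15 to 4.71 with AE knockdown and 2.71 to 4.34 with LYL1 knockdown. Of 6 fibroblast markers 1 passed the filter, COL1A2, DCN and LUM were at 0, and the sum was 0.0405 to 0.264 CPM in controls, 0.0705 to 0.501 with AE knockdown and 0.349 to 0.921 with LYL1 knockdown. Every LYL1 library thus lay above every control, mostly through PDGFRB, a receptor of fibroblasts and pericytes with means of 0.143 CPM in controls and 0.61 CPM with LYL1 knockdown. Of 5 smooth muscle and pericyte markers 4 passed, CNN1 was at 0, and the sum was 3.00 to 3.49 CPM in controls, 3.22 to 4.37 with AE knockdown and 2.07 to 3.99 with LYL1 knockdown. Of 5 epithelial markers 1 passed, KRT18 and KRT19 were at 0, and the sum, mostly EPCAM, was 0.84 to 1.21 CPM in controls, 0.916 to 1.3 with AE knockdown and 0.449 to 0.768 with LYL1 knockdown, below every control. The summed endothelial markers, led by ESAM, were lower with AE knockdown than in any control, as given above. The part of any of these in the results was not tested.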

How the data were processed

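RNA sequencing of 9 Kasumi-1 libraries was read from the authors' deposited raw counts, whole numbers per gene symbol, not normalised. The submitters' processing notes name hg19 and 5 tools without saying what each did: featureCounts 2.0.1, HISAT2 2.2.0, DESeq2 1.26.0, SAMtools 1.7 and fastp 0.20.1. Annotation, strand setting and handling of multi-mapped reads are not given in the sources used here, so overlapping and antisense genes and genes with close copies are uncertain. A decimal suffix on 5 gene names in 6 files was removed.

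Counts were scaled with TMM, filtered with filterByExpr by group and tested with edgeR 4.0.16 (R 4.3.3, limma 3.58.1): robust quasi-likelihood F tests on contrasts of one group-means model of all 9 libraries, Benjamini-Hochberg adjustment over 14741 genes, called below 0.05. Fold changes use a prior count of 0.125, and their size over the root of F gives the standard error. DESeq2 1.42.0 and the other alternatives are in the closing section. The fit was tested on simulated counts.

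The members and lists were chosen with earlier results of these data known; no set test was run. Named genes are the members, the knockdown targets, per list up to 3 with the smallest adjusted p in the AE comparison and up to 2 in the LYL1 comparison, and the 5 nearest to FLT1 and to TIE1 (log2 CPM with a prior count of 2). Other named genes (PLCG1, RAC2, PIK3CD, JAM3, ESAM, CTNNB1, FLI1, MEF2C, GATA2, TAL1, LMO2, KLF2, EGFL7, ENG, JUP, HIF1A, FLT4) were chosen after their values were seen. PECAM1 was not analysed here. The promoters are RefSeq's on GRCh38.p14.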

Additional observations from a re-analysis of the deposited data

How the results depend on the processing

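With AE knockdown 3214 genes were called, 957 to 4267 when 1 library was left out, the lowest counts without any 1 control and the highest without AE knockdown replicate 2. A fit of only the 6 libraries compared called 2579, and the replicate block added to that fit left 1629. The deviations of same-numbered control and AE libraries correlated at 0.0416, -0.0135 and 0.00685, and not every library correlated best with its own number. No pairing by number was thus seen. The control libraries differed little from each other, so these correlations cannot settle if same-numbered libraries share a culture. With LYL1 knockdown 2 genes were called, 5 with library size only, 8 with no low-count filter, 1 with a strict filter, 34 in DESeq2, 15 with only the 6 libraries compared and 1 to 11 when 1 library was left out. Of the vascular genes 0 were called there, and 1, TIE1, in DESeq2. Signs near 0 with LYL1 knockdown turned, with no call, for FLT1 without control replicate 2 (0.014, range -0.18 to 0.014 over the libraries left out), for CAVIN1 without shRNA 538 (-0.0011, range -0.0011 to 0.32) and for VEGFB without shRNA 540 (0.052, range -0.24 to 0.052). The cause was not tested. The AE values of all 7 tested vascular genes kept their sign in the 18 alternatives run. TIE1 rests on 9 to 71 counts a library, and FLT1 with AE knockdown on 1 to 16.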
